A study of Mus musculus with 34 samples.

Results

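Galectins, annexins and S100 proteins are small proteins that cells use at membranes and outside the cell, and 10 of their genes, *Lgals1*, *Lgals3*, *Anxa1*, *Anxa2*, *Anxa5*, *S100a4*, *S100a6*, *S100a10*, *S100a11* and *S100a13*, are described here in mast cells (MCs) and in *Myh11-GFP* cells of mouse ear skin. The 10 genes were chosen by name, with earlier results of these data known. Each had a row in all 34 count tables, which together hold 25853 genes. MCs were sorted as CD45+ cells that carried YFP and no markers of other immune lineages, from 3 WT and 3 Tln1ΔMC male mice aged 7 weeks, with 1 mouse taken for each number after the genotype in the sample titles. Both genotypes were littermates that carried *Mcpt5-cre*, in which a mast cell protease promoter drives Cre, and the R26 LSL:YFP reporter, on an albino C57BL/6J background with the Tyr c-2J allele. The WT mice were *Mcpt5-cre*+/- *Tln1*+/+ and the Tln1ΔMC mice *Mcpt5-cre* *Tln1* fl/fl, so that Cre removed talin-1, which links integrins to actin, in MCs. *Myh11-GFP*/+ mice carry GFP under the promoter of smooth muscle myosin heavy chain, and their CD45-GFP+ cells were sorted into 4 libraries. The paper names the albino background only for the *Mcpt5-cre* *Tln1* fl/fl crosses and C57BL/6J for all other strains. The *Myh11-GFP* mice thus differed from the MC mice in background as well. Their number was not given in the sources used here, and their age only as the range stated for all genotypes of the paper. These libraries were therefore treated as 1 sample and no test was made on them.

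Galectins bind sugars with galactose on glycoproteins, and galectin-1 (*Lgals1*) and galectin-3 (*Lgals3*) act both inside cells and on the cell surface. Annexins bind membranes rich in phosphatidylserine when calcium rises; annexin A1 is known for limiting inflammation, annexin A2 for joining membrane and actin, and annexin A5 as the probe for dying cells. S100 proteins are small calcium sensors that bind partners, such as annexin A2 for S100A10, annexin A1 for S100A11, non-muscle myosin heavy chain (*Myh9*) for S100A4, *Cacybp* for S100A6 and FGF1 for S100A13. Several of these genes are known to be abundant in mesenchymal cells, as is vimentin (*Vim*), a filament protein.

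All S100 genes of the set lie on chromosome 3 of GRCm38. In the GENCODE M21 annotation *S100a13* extends from 90514435 to 90524581, *S100a4* from 90603771 to 90606045 and *S100a6* from 90612882 to 90624181, all on the plus strand, and 6836 bases separate *S100a4* from *S100a6*. *S100a11* (93520488 to 93526287) and *S100a10* (93555080 to 93564643) form a second pair, 28792 bases apart. *Anxa5* lies on the same chromosome, from 36448923 to 36475894 on the minus strand. *Lgals1* is on chromosome 15 (78926725 to 78930465), *Lgals3* on chromosome 14 (47367751 to 47386160), *Anxa1* on chromosome 19 (20373428 to 20390944) and *Anxa2* on chromosome 9 (69453620 to 69491795). The predicted gene *Gm42674* overlaps *S100a4* on the same strand and held 1.0 transcript in kept cells, against 4201 of *S100a4*.

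RefSeq promoters of GRCm38.p6, from 250 bases before to 50 bases after the gene's start, were found for 8 of the 10 genes. They are shown, on the strand of the gene, for *S100a4* (chr3:90603520-90603819) and *Anxa1* (chr19:20390622-20390921), which were higher in *Myh11-GFP* cells, for *Lgals3* (chr14:47373610-47373909), which was higher in MCs, and for *Anxa2* (chr9:69453433-69453732) and *S100a11* (chr3:93520246-93520545), which were highest in the 2 MC libraries richest in keratinocyte transcripts. Capitals mark matches, on either strand, to 5 motifs, whose letters are given with their counts below the sequences.
S100a4: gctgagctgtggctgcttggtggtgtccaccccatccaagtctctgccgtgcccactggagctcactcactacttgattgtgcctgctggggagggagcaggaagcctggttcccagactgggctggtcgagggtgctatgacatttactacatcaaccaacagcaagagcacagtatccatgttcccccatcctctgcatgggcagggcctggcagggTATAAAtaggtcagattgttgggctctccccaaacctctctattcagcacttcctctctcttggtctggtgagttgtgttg
Anxa1: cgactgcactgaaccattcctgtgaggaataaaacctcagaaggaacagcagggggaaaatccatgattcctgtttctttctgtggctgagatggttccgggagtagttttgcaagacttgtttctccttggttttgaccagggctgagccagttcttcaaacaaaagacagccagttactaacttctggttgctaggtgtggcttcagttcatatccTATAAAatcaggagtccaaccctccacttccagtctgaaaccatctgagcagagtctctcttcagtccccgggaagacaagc
Lgals3: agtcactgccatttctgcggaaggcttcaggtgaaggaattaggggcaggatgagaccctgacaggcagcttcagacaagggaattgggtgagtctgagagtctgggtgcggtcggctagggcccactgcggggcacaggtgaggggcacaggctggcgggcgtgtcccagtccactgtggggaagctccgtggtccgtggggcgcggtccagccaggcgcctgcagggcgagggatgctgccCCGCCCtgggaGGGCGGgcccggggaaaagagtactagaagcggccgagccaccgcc
Anxa2: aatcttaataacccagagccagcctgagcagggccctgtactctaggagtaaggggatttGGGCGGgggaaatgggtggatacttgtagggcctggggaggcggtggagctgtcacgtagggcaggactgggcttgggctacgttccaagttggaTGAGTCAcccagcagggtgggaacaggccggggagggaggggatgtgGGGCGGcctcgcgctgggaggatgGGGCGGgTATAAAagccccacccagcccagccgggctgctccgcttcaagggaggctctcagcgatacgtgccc
S100a11: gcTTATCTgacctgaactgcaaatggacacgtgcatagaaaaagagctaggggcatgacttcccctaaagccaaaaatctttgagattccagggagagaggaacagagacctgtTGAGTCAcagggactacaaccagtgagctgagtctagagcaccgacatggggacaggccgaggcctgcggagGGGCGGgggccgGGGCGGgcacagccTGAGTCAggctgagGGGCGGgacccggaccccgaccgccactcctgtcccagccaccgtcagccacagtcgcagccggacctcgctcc
A match to the TATA box motif, TATAAA, lay at position -31 from the start of *S100a4*, at -32 in *Anxa1* and at -17 in *Anxa2*, and 13.6% of all 32851 promoters of this length held one on either strand. For the site of the AP-1 factors, searched as TGAGTCA on both strands, *Anxa2* had 1 match and *S100a11* had 2, whereas 5.20% of all promoters held any. The box of the Sp factors, GGGCGG, was found in *Lgals3* (2 matches), *Anxa2* (3 matches) and *S100a11* (3 matches), beside 35.7% of all promoters. *S100a11* alone had a match to the site of GATA factors, AGATAA (11.2% of all promoters). *Anxa5* alone matched the CArG box of serum response factor (1.63%). In *S100a6* and *S100a13* these windows held none of the 5 motifs. The RefSeq start of *Lgals3* lies inside the gene as GENCODE M21 draws it. These matches describe the letters only.

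Levels are given as transcripts per 10000, counted outside the predicted genes named Gm plus a number, which held 13.97% to 58.6% of the transcripts of MC mice and 11.95% to 25.6% of those of *Myh11-GFP* libraries. mCEL-Seq2 counts molecules at their 3' end, so levels do not grow with the length of a gene. After a cluster of 23 macrophage-like cells was left out, 2454 MCs remained, with 270 to 927 cells and 682144 to 5158250 transcripts outside Gm genes per mouse, and 330 *Myh11-GFP* cells with 221589 to 478713 per library. The 10 MC marker genes summed to 674 to 905 per 10000 in MC mice and to 0.406 to 0.558 in *Myh11-GFP* libraries, whereas 6 genes of vascular smooth muscle cells (VSMCs) summed to 89.4 to 115 in *Myh11-GFP* libraries and to 0.0679 to 0.337 in MC mice. *Tln1*, counted at its 3' end and so perhaps outside the deleted part, was at 4.51, 5.92 and 6.64 in the WT and at 5.57, 4.33 and 3.62 in the Tln1ΔMC mice, which does not check the labels. WT mouse 2 and Tln1ΔMC mouse 3 each had 1 library in which 70 of 75 and 85 of 93 cells fell into a keratinocyte-like cluster, and results that rest on these libraries are given with and without them.

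In MCs *S100a6* had the highest median of the 10 genes and *S100a13* the lowest. *S100a6*, which binds *Cacybp* and annexins, had a median of 11.7 per 10000 over the 6 mice. *Lgals1* (median 8.39) and *Lgals3* (7.77) followed. *S100a6* exceeded *Lgals1* in only 2 of 6 mice and *Lgals1* exceeded *Lgals3* in 4 of 6, so the order of these 3 genes was not settled by the spread between mice. *Lgals3* was above *Anxa5* (median 4.25), the next gene, in 6 of 6 mice. *S100a10* (4.12), *S100a11* (4.02), *Anxa1* (2.80) and *Anxa2* (2.55) lay below, and of these neighbours only *Anxa2* exceeded the gene after it in all mice. *S100a4* (1.23) and *S100a13* (0.741) closed the order, and *S100a4* was the higher in 6 of 6 mice. In *Myh11-GFP* cells *S100a6* (26.7), *S100a4* (14.6), *S100a11* (8.29), *Lgals1* (7.04) and *Anxa1* (6.09) led the order, followed by *Anxa2* (3.21), *Anxa5* (2.76), *Lgals3* (1.95), *S100a10* (1.61) and *S100a13* (0.444). Each exceeded the next in 4 of 4 libraries, except that *S100a11*, *Anxa2* and *Lgals3* did so in 3.

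**Figure D1:**
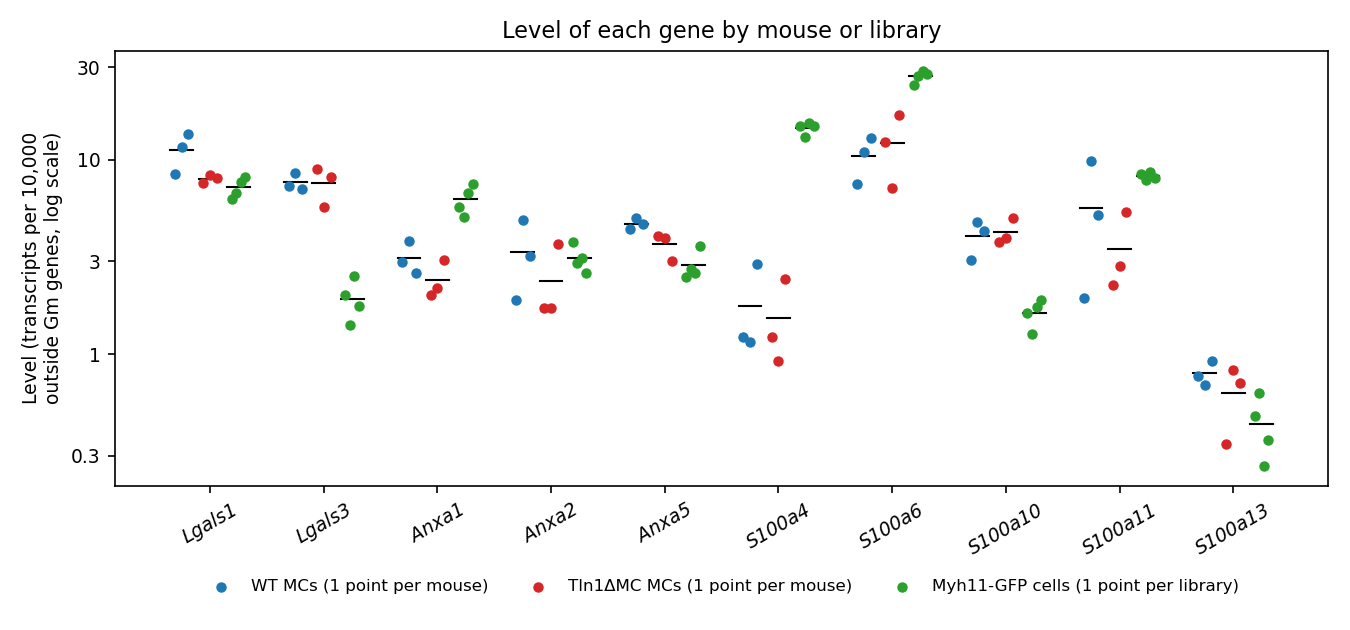
Level of the 10 genes on a log scale, in transcripts per 10000 outside Gm genes, with 1 point per mouse for WT and Tln1ΔMC MCs and 1 point per library for *Myh11-GFP* cells; black lines are means. *S100a4*, *S100a6* and *Anxa1* sat higher in all 4 *Myh11-GFP* libraries than in all 6 MC mice, and *Lgals3* and *S100a10* lower.

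The comparison of MCs with *Myh11-GFP* cells sets an immune cell of the skin beside cells of the vessel wall. It showed 3 genes above and 2 genes below, with no overlap between the 6 MC mice and the 4 *Myh11-GFP* libraries. Of 6100 genes with a level of at least 0.3 in either population, all *Myh11-GFP* libraries were above all MC mice for 26.3% and below for 25.9%. At least 2-fold above the median MC mouse were *S100a4*, *S100a6*, *Anxa1* and *S100a11*, 4 of 10, beside 24.2% of all genes, and at least 2-fold below it *Lgals3* and *S100a10*, 2 of 10, beside 22.1%. The 2 sorts, the mice and the libraries differed together, so that a difference of cell type and one of preparation cannot be told apart.

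*S100a4*, known also as fibroblast-specific protein, differed most. It was at 1.23, 1.15 and 2.91 per 10000 in the WT mice, at 1.23, 0.926 and 2.44 in the Tln1ΔMC mice and at 15.0, 13.1, 15.5 and 14.9 in the *Myh11-GFP* libraries. The *Myh11-GFP* cells together had 14.6 (95% exact Poisson interval 14.02 to 15.3, for counting error only), which was 11.9-fold the median MC mouse, and the lowest library was 4.51-fold above the highest mouse. When every cell was thinned to 1000 UMIs outside Gm genes, 62.4% of *Myh11-GFP* cells held a UMI of *S100a4*, against 4.97% to 14.03% in the MC mice. Without thinning the shares were 77.3% and 9.89% to 33.8%. Thinning left out 11 to 85 cells per MC mouse and 23 *Myh11-GFP* cells.

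*S100a6* was the most abundant member in *Myh11-GFP* cells. It was at 7.50, 11.0 and 12.9 in the WT mice, at 12.4, 7.13 and 17.1 in the Tln1ΔMC mice and at 24.3, 27.0, 28.8 and 27.8 in the *Myh11-GFP* libraries. The level of all *Myh11-GFP* cells, 26.7 (25.9 to 27.6), was 2.28-fold the median MC mouse, and the lowest library lay 1.42-fold above the highest mouse. Both neighbours on chromosome 3 were thus higher in *Myh11-GFP* cells, whereas *S100a13*, on their other side, was at 0.346 to 0.924 in MC mice and at 0.265 to 0.633 in the libraries, which overlapped.

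*Anxa1*, which encodes the inhibitor of inflammation annexin A1, was at 2.99, 3.81 and 2.61 in the WT mice, at 2.03, 2.20 and 3.04 in the Tln1ΔMC mice and at 5.69, 5.10, 6.72 and 7.50 in the *Myh11-GFP* libraries. The *Myh11-GFP* cells had 2.17-fold the level of the median MC mouse, and no library reached down to the MC range. *S100a11*, whose protein binds annexin A1, was at 1.94, 9.88 and 5.21 in the WT mice, at 2.26, 2.84 and 5.38 in the Tln1ΔMC mice and at 8.45, 7.88, 8.63 and 8.04 in the libraries. WT mouse 2 lay above all libraries, so the 2 ranges overlapped. Without both libraries rich in keratinocyte transcripts WT mouse 2 was at 6.75 and Tln1ΔMC mouse 3 at 3.98, and all MC mice were then below all libraries.

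*Lgals3*, galectin-3, was the member that MCs held most in excess. It was at 7.37, 8.55 and 7.09 in the WT mice, at 8.94, 5.71 and 8.18 in the Tln1ΔMC mice and at 2.01, 1.40, 2.52 and 1.76 in the *Myh11-GFP* libraries. The median MC mouse had 3.98-fold the level of all *Myh11-GFP* cells, which was 1.95 (1.73 to 2.19). In thinned cells 34.8% to 50.2% of the cells of an MC mouse held a UMI of *Lgals3*, against 14.4% of *Myh11-GFP* cells, and without thinning 57.4% to 84.0% against 37.0%. *S100a10*, the partner of annexin A2, was at 3.04, 4.81 and 4.30 in the WT mice, at 3.795, 3.94 and 5.04 in the Tln1ΔMC mice and at 1.63, 1.27, 1.75 and 1.90 in the libraries. Its median MC mouse was 2.56-fold above the *Myh11-GFP* cells, with no overlap, although with all genes in the total the log2 of *Myh11-GFP* over MCs was -0.56, under 2-fold, and WT mouse 1 (1.47) fell within the range of the libraries (1.02 to 1.54).

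*Anxa2* itself did not follow *S100a10*. It was at 1.90, 4.91 and 3.20 in the WT mice, at 1.72, 1.72 and 3.67 in the Tln1ΔMC mice and at 3.77, 2.95, 3.11 and 2.62 in the *Myh11-GFP* libraries, so that the groups overlapped. *Lgals1* was at 8.48, 11.6 and 13.6 in the WT mice, at 7.63, 8.31 and 8.06 in the Tln1ΔMC mice and at 6.27, 6.72, 7.65 and 8.18 in the libraries. *Anxa5* ranged from 3.03 to 5.01 in MC mice and from 2.51 to 3.61 in the libraries. *Lgals1* and *Anxa5* overlapped between the populations, and their log2 ratios of *Myh11-GFP* cells over the median MC mouse, -0.25 and -0.62, turned to 0.22 and 0.04 when Gm genes were counted in the total.

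Other galectin, annexin and S100 genes were looked up from a list of 29, of which 26 were in the tables. The list also held *Lgals3bp* and *S100pbp*, which encode binding proteins and no galectin or S100 protein. *Lgals8*, *Lgals9*, *Anxa6*, *Anxa7* and *Anxa11*, 5 of them, reached 1 per 10000 in the median MC mouse or in *Myh11-GFP* cells. *Lgals9*, galectin-9, was at 3.55 to 6.71 in MC mice and at 0.3404 in *Myh11-GFP* cells, 14.1-fold higher in the median MC mouse. *Anxa11* (3.04 to 5.50 in MC mice against 0.868), *Anxa6* (3.94 to 8.35 against 1.75) and *Lgals8* (1.33 to 1.80 against 0.465) were also above all *Myh11-GFP* libraries in all MC mice. *Anxa7* went the other way, at 0.475 to 0.962 in MC mice and 1.17 in *Myh11-GFP* cells. *Anxa3*, looked at after its values were seen, was at 0 to 0.0925 in MC mice and at 0.861 in *Myh11-GFP* cells. The neutrophil genes *S100a8* and *S100a9*, chosen in the same way, were at 0 to 0.196 and 0 to 0.423 in MC mice, and no transcript of either was counted in *Myh11-GFP* cells, which allows up to 0.0256 per 10000 by the exact Poisson interval.

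Of 19 partner genes, 9 reached 1 per 10000. *Myh9*, the myosin that S100A4 binds, was at 0.628 to 1.07 in MC mice and at 3.11 in *Myh11-GFP* cells, and the integrin subunit *Itgb1* at 2.52 to 3.26 and 8.67. *Ahnak*, a large scaffold that binds the annexin A2 and S100A10 complex, was at 20.6 to 36.5 in MC mice and at 9.68 in *Myh11-GFP* cells. The hyaluronan receptor *Cd44* (5.20 to 7.29 against 1.67), the urokinase gene *Plau* (1.54 to 2.38 against 0.542), the lamin gene *Lmna* (20.03 to 42.9 against 5.39), *Arpc2* of the actin-branching complex (8.54 to 12.1 against 3.74) and the GTPase gene *Cdc42* (7.45 to 11.1 against 4.77) were likewise higher in all MC mice than in all libraries. *Vim* was at 44.0 to 67.0 in MC mice and at 35.7 in *Myh11-GFP* cells. *Fgf1*, whose protein S100A13 binds and which was looked at after its values were seen, was at 0.00194 to 0.0586 in MC mice and at 0.819 in *Myh11-GFP* cells.

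The comparison of Tln1ΔMC with WT MCs asks what the loss of talin-1 did to these genes. None of the 10 passed the test in limma with Benjamini-Hochberg adjustment over 8524 genes, and neither did any other gene, a share of 0%, with 525 genes (6.16%) at an unadjusted p under 0.05. None of the 10 was among those either. The log2 fold changes of the members ran from -0.43 for *S100a11* to 0.25 for *S100a6*, with a median of -0.29 beside 0.05 for all genes. Of the 10 members 7 were negative, beside 3755 of all 8524 genes. After TMM normalization, which scales the libraries on genes that change little, all Tln1ΔMC mice lay below all WT mice for 3.12% of the genes tested and above for 9.03%, and for 0 of the 10 members.

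The mice fell into sets that the labels do not name. Each library used 1 of 2 sets of 96 cell barcodes, so that barcodes recurred between libraries by design, and barcodes of the other set held 2.13% to 5.96% of the transcripts of a mouse or *Myh11-GFP* library. The pattern of these stray transcripts over the barcodes had a Spearman rho of 0.966 to 0.976 between WT mouse 1 and Tln1ΔMC mouse 1 and of 0.968 to 0.985 among WT mice 2 and 3 and Tln1ΔMC mouse 2. All other pairs had -0.223 to 0.364, with Tln1ΔMC mouse 3 and the *Myh11-GFP* libraries each apart, so that the sort of *Myh11-GFP* cells and their set cannot be told apart. The log2 ratios of levels within the first 2 sets stand beside the pooled values below, with the second set also without the keratinocyte-rich library of WT mouse 2 where that library was high.

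*Lgals1* had the smallest p of the members. It was at 8.48, 11.6 and 13.6 per 10000 in WT mice (mean 11.2 ± 2.60, SD, n = 3) and at 7.63, 8.31 and 8.06 in Tln1ΔMC mice (8.00 ± 0.343, SD, n = 3), with all Tln1ΔMC mice below all WT mice. After TMM scaling WT mouse 1 lay between Tln1ΔMC mouse 1 and the other Tln1ΔMC mice. The log2 fold change was -0.38 ± 0.24 (SE, 3 mice each), with a 95% interval from -0.92 to 0.16 and an adjusted p of 0.881 in limma. The log2 ratio of levels was -0.15 in the first set of mice and -0.60 in the second. Without both libraries rich in keratinocyte transcripts the Tln1ΔMC mice were at 7.63, 8.31 and 8.96 and overlapped WT mouse 1. The fibroblast markers, 7 genes in sum, were at 26.3 to 104 in WT mice and at 1.36 to 12.998 in Tln1ΔMC mice, and single libraries carried much of this. Library 1 of WT mouse 2 held 521 and library 2 of WT mouse 3 held 272. Without the highest library of each mouse the WT mice were at 9.42, 3.66 and 3.79 and the Tln1ΔMC mice at 2.59, 2.03 and 1.25. *Lgals1* was at 11.5 in library 1 of WT mouse 2 and at 10.4 to 12.8 in the other libraries of that mouse. In library 2 of WT mouse 3 it was at 11.6, beside 12.2 to 17.1 in the others. The part of fibroblast transcripts in the values of *Lgals1* was not tested.

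*S100a11* and *Anxa2* had log2 fold changes of -0.43 ± 0.56 and -0.40 ± 0.41 (SE), with limma adjusted p of 0.951 and 0.917. For *S100a11* the interval ran from -1.68 to 0.82, and WT mouse 2 alone was far above the other mice. The log2 ratio of *S100a11* was 0.22 in the first set and -1.41 in the second, and that of *Anxa2* was -0.14 and -1.23. Without the keratinocyte-rich libraries the second set was at -1.08 for *S100a11* and at -0.79 for *Anxa2*, and the fold changes were -0.39 and -0.33. Without WT mouse 2 the fold change of *S100a11* was 0.16.

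*S100a6* and *S100a10* leaned upward, with log2 fold changes of 0.25 ± 0.34 and 0.17 ± 0.25 (SE), and limma gave adjusted p of 0.956 and 0.960. *S100a6* had a log2 ratio of 0.73 in the first set and of -0.75 in the second, opposite in sign, and *S100a10* one of 0.32 and -0.21, the latter -0.042 without the keratinocyte-rich library. *Lgals3* had the pooled value nearest to 0, at 0.05 ± 0.21 (SE), with an interval from -0.42 to 0.53, and ratios of 0.28 and -0.45 in the sets. *Anxa1* (-0.30), *Anxa5* (-0.28), *S100a13* (-0.34) and *S100a4* (-0.11) were negative, with limma adjusted p between 0.890 and 0.983. For *Anxa1* the ratio was -0.56 in the first set and -0.54 in the second, but without the keratinocyte-rich libraries the second was -0.18 and the pooled fold change -0.19. *Anxa5* had ratios of -0.12 and -0.29, *S100a4* of 0.0063 and -1.13 and *S100a13* of -1.16 and 0.040.

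**Figure D2:**
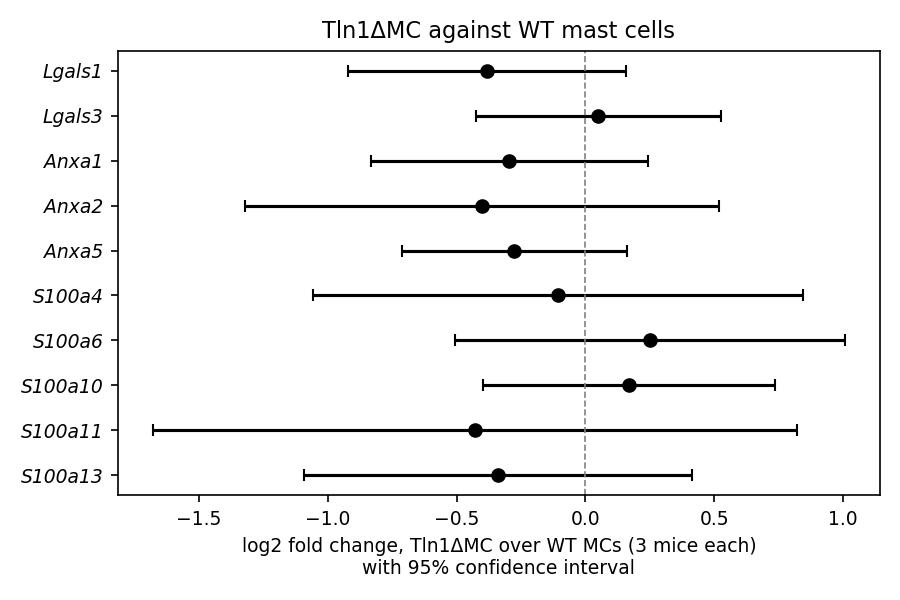
log2 fold change of each gene in Tln1ΔMC over WT MCs with its 95% confidence interval, from limma over 3 mice a genotype; the dashed line marks 0. All 10 intervals include 0, and that of *S100a11*, from -1.68 to 0.82, is the widest.

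Of the 29 genes on the list of other family genes 12 could be tested, and 0 passed the limma test, with 1 at an unadjusted p under 0.05. That gene was *S100pbp*, which encodes a protein that binds S100P and is no S100 protein itself. Its log2 fold change was 0.71 (limma adjusted p = 0.603), with all Tln1ΔMC mice above all WT mice. Of the 19 partners 12 were tested and 0 passed, and *Ahnak* had a log2 fold change of 0.54 (limma adjusted p = 0.766), higher in all 3 Tln1ΔMC mice. Of these lists 8 of 12 and 6 of 12 fold changes were negative, with medians of -0.21 and -0.01, beside 3755 negative of all 8524 genes.

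Within sorted MCs, *Anxa1*, *Anxa2* and *S100a11* were highest where keratinocyte transcripts were highest. In library 3 of WT mouse 2 the 6 keratinocyte markers summed to 78.1 per 10000 and in library 8 of Tln1ΔMC mouse 3 to 134, beside at most 20.1 in the other 28 MC libraries. *Anxa2* was at 8.87 and 9.64 in these libraries, against 2.64 to 2.91 in the other libraries of WT mouse 2 and 1.97 to 2.87 in those of Tln1ΔMC mouse 3. *Anxa1* was at 6.47 and 6.30, against 2.12 to 2.75 and 2.06 to 2.96. *S100a11* was at 15.7 and 11.9, and the other libraries of Tln1ΔMC mouse 3 were at 3.06 to 6.03. *Lgals1* was the lowest of its mouse in both libraries, at 3.90 beside 7.77 to 10.8 in Tln1ΔMC mouse 3 and at 10.4 beside 11.5 to 12.8 in WT mouse 2. The macrophage markers, a list with MHC class II genes, were also high in these libraries, at 54.9 in that of WT mouse 2 and 19.3 in that of Tln1ΔMC mouse 3. Library 2 of WT mouse 3 held 42.0 of them, and the remaining MC libraries at most 10.2. The part of keratinocyte or macrophage transcripts in the levels of the members was not tested.

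**Figure D3:**
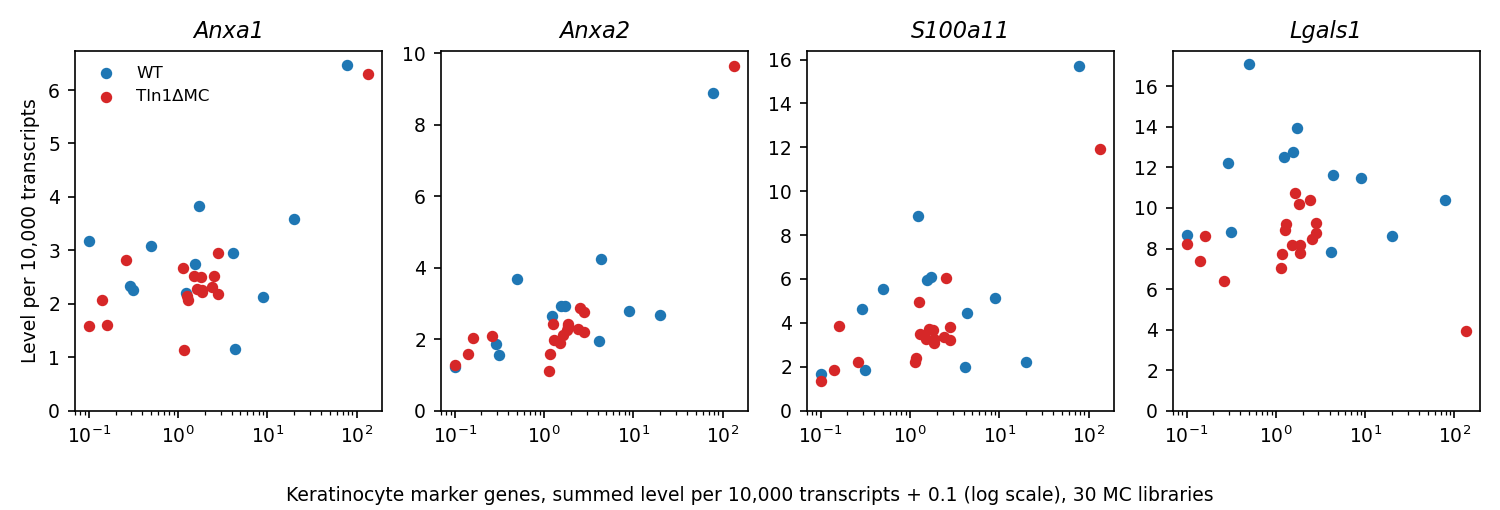
Level of *Anxa1*, *Anxa2*, *S100a11* and *Lgals1* (transcripts per 10000) against the summed level of 6 keratinocyte markers plus 0.1 (log scale), with 1 point for each of 30 MC libraries. The 2 libraries at the right, with keratinocyte sums of 78.1 and 134, hold the highest *Anxa1*, *Anxa2* and *S100a11*.

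Clusters were built without the members. The keratinocyte-like cluster of 189 cells drew 70 and 85 of them from the same 2 libraries, so its levels largely restate the library values. The sorted MCs formed 13 clusters, of which 9, with 2077 cells, were mast cell-like. A further cluster of 31 cells held *Mcpt4* at 297 per 10000 but was led by liver genes such as *Alb* and *Ahsg*, and it stayed unnamed, with its cells kept in the MC levels above. In the keratinocyte-like cluster of 189 cells *Anxa2* was at 10.0 (95% Poisson interval 9.48 to 10.6) and *S100a11* at 14.2 (13.5 to 14.8), beside 1.49 to 2.40 and 1.79 to 4.92 over the mast cell-like clusters. The cells of this cluster still held the mast cell protease *Mcpt4* at 180 per 10000, together with *Krt5* at 41.2. *Lgals3* (11.6), *Anxa1* (6.71) and *S100a10* (6.43) were also above all mast cell-like clusters there, whose ranges were 4.76 to 8.83, 1.36 to 3.14 and 3.06 to 5.04, while *Lgals1* (6.05) was below their 7.46 to 11.3.

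In the 23 macrophage-like cells, left out of all MC levels above, *S100a4* was at 13.2 (11.5 to 15.2), beside 0.720 to 2.81 over the mast cell-like clusters. *S100a6* (19.0), *S100a10* (9.31), *S100a11* (9.65) and *Anxa2* (7.58) were likewise above all mast cell-like clusters there. The fibroblast-like cluster of 157 cells had *Lgals1* at 11.5 and *S100a4* at 3.51. Its extent depended on the clustering, with 18 fibroblast-like cells at resolution 0.5 and 88 at 1.5. Among the mast cell-like clusters *S100a6* ranged most in absolute level, from 7.35 to 18.2.

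The clusters of at least 20 *Myh11-GFP* cells differed in the smooth muscle actin gene *Acta2*, and *S100a4* and *Lgals3* were higher in the Acta2-high ones. Clusters with 195 cells held *Acta2* at 61.9 and *Myh11* at 29.0, and clusters with 104 cells held them at 21.4 and 8.43, with the pericyte channel genes *Kcnj8* (3.66 against 0.592) and *Abcc9* (5.29 against 1.14) higher instead. The more abundant pericyte gene *Rgs5* hardly differed, at 129 in the Acta2-low and 132 in the Acta2-high clusters. The split is thus not a clean one of smooth muscle cells and pericytes. The split was made after the data were seen, and 1 of the 2 Acta2-low clusters was pericyte-like while the others stayed unnamed. *S100a4* was at 21.6, 18.6, 20.9 and 24.3 in the Acta2-high cells of the 4 libraries and at 10.3, 9.73, 11.0 and 9.71 in their Acta2-low cells. Its level was 21.02 (19.97 to 22.1) against 10.2 (9.35 to 11.1), a ratio of 2.06, and it was higher in 4 of 4 libraries. These libraries are parts of 1 sample and no replicates. The share of all genes that differed in the same direction in every library was not counted.

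*Lgals3* was at 2.10 against 0.957, a ratio of 2.20, in the same direction in 4 of 4 libraries, although the ratio ran from 1.04 to 3.87. Its log2 ratio was 1.13 here and ranged from 0.66 to 1.59 with coarser and finer clusters. *Anxa1* went the other way. It was at 4.47, 3.06, 5.01 and 6.58 in the Acta2-high cells of the libraries and at 6.64, 7.84, 10.8 and 8.79 in their Acta2-low cells, 1.82-fold higher in the latter over all cells. The size of this difference depended on the clustering. The log2 ratio of Acta2-high over Acta2-low for *Anxa1* was -0.86 here and -0.44 and -0.39 with coarser and finer clusters. *S100a6* was at 25.2 against 31.3, and with finer clusters this order turned. *Lgals1* (7.17 and 7.57), *S100a11* (8.42 and 8.94) and *Anxa2* (2.47 and 2.83) had overlapping Poisson intervals. So had *Anxa5* (2.45 and 3.14), *S100a10* (1.07 and 1.38) and *S100a13* (0.324 and 0.593). *Anxa2* and *S100a13* were lower in the Acta2-high cells of every library.

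**Figure D4:**
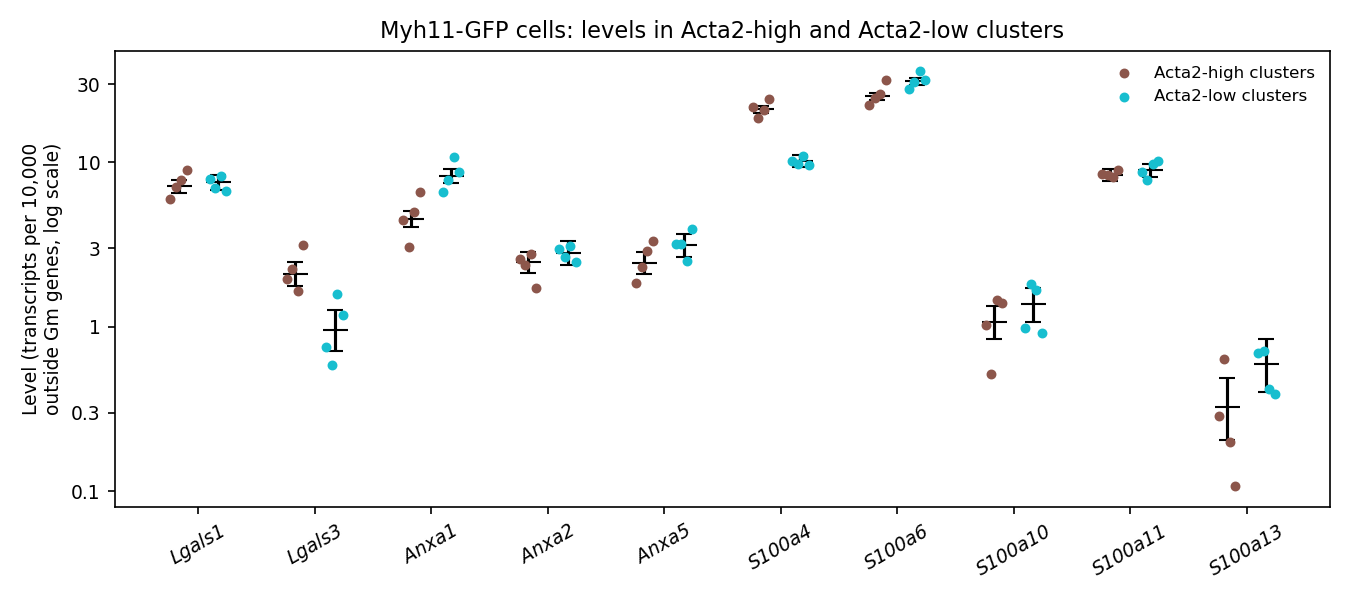
Level of the 10 genes (transcripts per 10000 outside Gm genes, log scale) in Acta2-high and Acta2-low clusters of *Myh11-GFP* cells; points are the 4 libraries, and black marks are the level over all cells with its 95% Poisson interval. *S100a4* lies higher in the Acta2-high clusters of every library (21.02 against 10.2 overall) and *Anxa1* lower (4.56 against 8.28).

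Small clusters of other cells were also present among *Myh11-GFP* cells. In 4 keratinocyte-like cells *Anxa2* was at 16.5 (12.97 to 20.8), while no transcript of *S100a4* or *Lgals1* was counted, which allows up to 0.833 per 10000 for each. *Lgals1* was at 0.313 (0.00792 to 1.74) in 6 endothelial-like cells and at 8.56 in 7 fibroblast-like cells. In 3 VSMC-like cells, which held *Acta2* at 172 and *Myh11* at 64.7 and were too few to enter the split, *S100a4* was at 5.29 (1.72 to 12.3), below the Acta2-high clusters, and no transcript of *Lgals3* was counted, which allows up to 3.90. With 3 to 11 cells each, these clusters give levels of few cells only.

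The barcodes of the other set also gave a count of stray transcripts of the members, as a mean over barcodes. RNA of other cells that entered the well of a sorted cell was not measured. These barcodes had 2.42% to 4.01% of the transcripts of a cell. For *S100a4* in *Myh11-GFP* libraries the share was 0.832% of a cell's level, and for *S100a10*, low in these cells, 9.83%. In MC mice the shares of the members lay between 0.752% and 6.38%.

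Across MCs of a mouse, all 10 genes had a positive mean correlation with *Vim*. The mean Spearman rho over the 6 mice was 0.31 for *Lgals1* (0.26 to 0.37 by mouse), 0.29 for *Lgals3* (0.20 to 0.39), 0.28 for *S100a6* (0.14 to 0.38) and 0.28 for *S100a10* (0.18 to 0.37). *Anxa5* had 0.25, *Anxa2* and *Anxa1* 0.19 each, *S100a4* 0.15, *S100a11* 0.13 and *S100a13* 0.10. The mice held 270 to 927 cells each, and the cells of a mouse share libraries and differ in depth, so these values are descriptions.

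Thinning every cell to 1000 UMIs lowered all of them. *Lgals1* then had a mean rho of 0.16 (0.14 to 0.19 by mouse) and *Lgals3* of 0.16 (0.11 to 0.22). They ranked 8 and 12 among 1622 genes with a level of at least 1 per 10000, whose median was 0.02 and whose 90th percentile was 0.07. *S100a6* ranked 20, *S100a10* 29, *S100a4* 39, *Anxa5* 43 and *Anxa1* 46, whereas *Anxa2* ranked 172 and *S100a11* 393. *S100a13*, with a mean level below 1 per 10000, was not ranked. The members were chosen with earlier results of these data known, so the ranks are descriptions and no test of the set. *Serpinb1a* (0.30), *Lmna* (0.29) and *Sqstm1* (0.26) led the list for *Vim*.

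**Figure D5:**
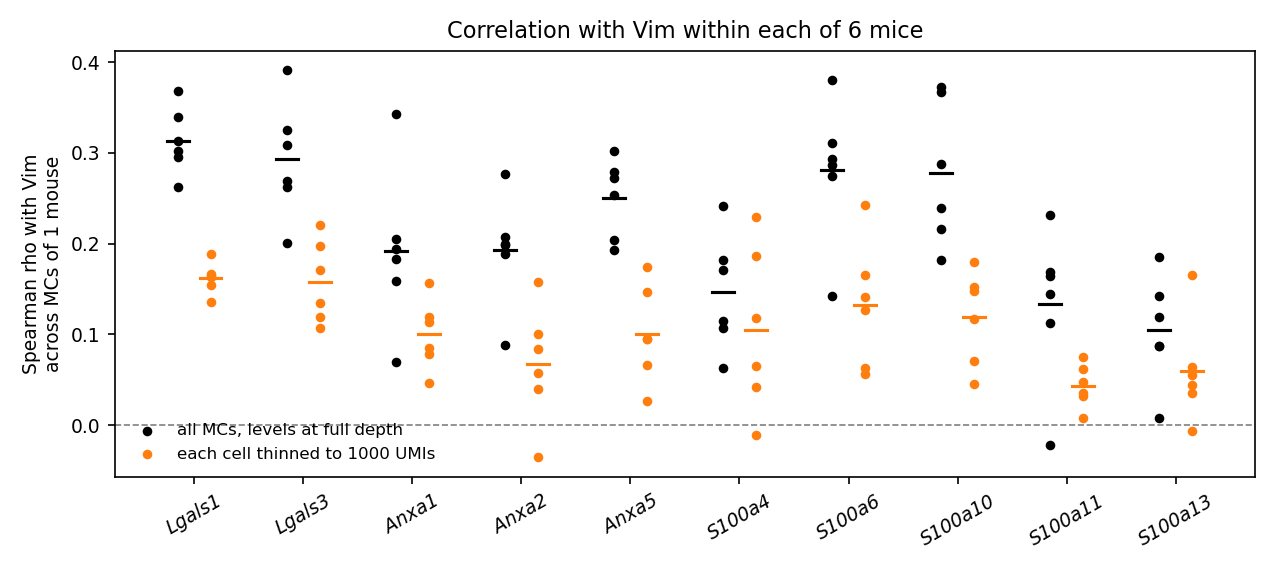
Spearman rho of each gene with *Vim* across the MCs of 1 mouse, at full depth (black) and with every cell thinned to 1000 UMIs (orange); each point is 1 of 6 mice and each line their mean. Means at full depth run from 0.10 for *S100a13* to 0.31 for *Lgals1*, and after thinning from 0.04 for *S100a11* to 0.16.

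Among the members themselves, the chromosome 3 neighbours *S100a4* and *S100a6* were most alike, with a mean rho of 0.23 in thinned cells (0.16 to 0.29 by mouse). *S100a6* and *S100a10* followed with 0.13, *Anxa2* and *S100a6* with 0.12 and *Anxa2* and *S100a4* with 0.11. *Anxa2* and its partner *S100a10* had 0.08 (0.02 to 0.15), *Anxa1* and its partner *S100a11* 0.05, and the neighbours *S100a10* and *S100a11* 0.01. The median of the 45 pairs was 0.05, and 14 pairs were positive in all 6 mice. Weak values of this size in sparse counts are no finding. The genes most like *Anxa2* and *S100a11* were led by *Krt5*, at 0.13 and 0.12, and those most like *Lgals1* by the protease gene *Cma1*, at 0.20. The lowest mouse was at 0 for both correlations with *Krt5* and at -0.014 for that with *Cma1*.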

How the data were processed

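Single cells of mouse ear skin were sequenced by mCEL-Seq2 in libraries of 96 barcodes. The deposited tables hold transcript counts per gene and barcode. The authors made them with bcl2fastq 2.17.1.14 and BWA 0.6.2-r126, aligned to gene models of mm10, discarded reads with several hits, and converted counts of 6-base UMIs (4096 possible) to transcripts by binomial statistics, so values are estimated counts and need not be whole. A file that lists barcodes by cell was deposited beside them.

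Cells with over 1000 transcripts and at most 2% *Kcnq1ot1* were kept, and the latter removed 0 cells. Transcripts were summed per mouse outside genes named Gm plus a number. The test of Tln1ΔMC against WT mice used R 4.3.3 and limma 3.58.1 with its trend option, on the log2 of TMM-scaled transcripts per 1e6 plus 1, two-sided, for 8524 genes that reached 10 transcripts in 3 or more mice, with a Benjamini-Hochberg threshold of 0.05; the script was tested on simulated data. The study's own test takes cells as replicates, and sums per mouse replaced it. Adjusted p-values are limma's. *Myh11-GFP* libraries were compared by values only. Poisson intervals and limits cover counting error only. Cells were clustered with scanpy 1.11.5 and leidenalg 0.10.2 (2000 variable genes without the members, 30 components, 15 neighbours, resolution 1), and doublets were not called. A cluster was named from at least 3 markers of a cell type that were found in 25% of its cells and 2-fold above the other clusters. It was called mast cell-like where it had fewer than 3 such markers of another cell type and at least 3 mast cell markers in 25% of its cells. A cluster led by liver genes was left unnamed, a choice made after its leading genes were seen. MC total transcripts per mouse ranged from 1412800 to 5995590.

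The members and gene lists were chosen with earlier results of these data known. All 10 members are given in the comparisons of populations, genotypes and Acta2 groups and in the correlation with *Vim*. For the other clusters only some members are given. Other family and partner genes are given where called or at a level of at least 1 per 10000. The leading gene by mean within-mouse correlation is given for *Anxa2*, *S100a11* and *Lgals1*. Alternatives covered scaling, filters, pseudocount, blocks, clusters and leaving out each mouse or library.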

Additional observations from a re-analysis of the deposited data

Results flagged for a closer look

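Among 70 sets of libraries tested, 1 for each gene in each mouse or in *Myh11-GFP* cells, 8 had a library far from the others by Dixon's criterion. Chance gives this in about 1 in 20 independent sets, but the genes of a mouse share its libraries. The share of such sets over all genes was not counted, so no excess of the members is read from the 8. Library 8 of Tln1ΔMC mouse 3 stood apart for *Lgals1* (3.90, others 7.77 to 10.8), *Anxa1* (6.30, others 2.06 to 2.96), *Anxa2* (9.64, others 1.97 to 2.87) and *S100a11* (11.9, others 3.06 to 6.03). Library 3 of WT mouse 2 stood apart for *Anxa1* (6.47, others 2.12 to 2.75), *Anxa2* (8.87, others 2.64 to 2.91) and *S100a10* (6.65, others 3.58 to 3.94). These are the 2 libraries rich in keratinocyte transcripts. Library 13 of WT mouse 1 was low for *S100a13* (0.494, others 0.809 to 0.867).

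The barcodes outside the set in use held transcripts of the members. Of these barcodes 17 passed the filter on cells and were kept in the comparisons, and the values here are from the others. Summed over the 10 genes they came to 33.0, 37.3 and 42.2 per 10000 in WT mice 1 to 3, to 27.2, 45.7 and 42.9 in Tln1ΔMC mice 1 to 3 and to 67.7 in *Myh11-GFP* libraries.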

How the results depend on the processing

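No member was called in any of 23 alternatives, and limma adjusted p stayed at 0.302 or more. Over all genes 0 were called, and 6 with the set of mice as a block (5 lower, 1 higher). In that fit Tln1ΔMC mouse 3, alone in its set, added nothing to the fold changes. When leaving out each mouse 0 to 15 genes were called, with 15 without Tln1ΔMC mouse 1, and the cause was not tested. With the replicate number as a block 0 genes were called; same-numbered mice had correlations of 0.14, -0.18 and -0.32 between deviations from the group means, so the numbers do not pair the mice. Signs of fold changes turned for *Lgals3* without TMM (-0.032), with the set as a block (-0.041) and with means over cells (-0.029), for *S100a4* in mast cell-like clusters only (0.092) and for *S100a6* with the set as a block (-0.016). Leaving out each mouse gave -0.077 to 0.22 for *Lgals3*, -0.54 to 0.31 for *S100a4*, -0.072 to 0.57 for *S100a6*, -0.092 to 0.35 for *S100a10*, -1.12 to 0.16 for *S100a11* and -0.61 to 0.037 for *S100a13*. With Gm genes in the total, 1 member instead of 2 was at least 2-fold higher in MCs and 5 instead of 4 in *Myh11-GFP* cells, *Lgals1* and *Anxa5* turned to 0.22 and 0.037 (log2 of *Myh11-GFP* over MCs), *S100a10* overlapped, and the median rho with *Vim* moved from 0.22 to 0.37; thinning to 1000 UMIs gave 0.10. Without WT mouse 1 or Tln1ΔMC mouse 1 or 2, *S100a11* fell below 2-fold (0.67), leaving 3 members. Acta2-high over Acta2-low log2 ratios turned at resolution 1.5 for *Lgals1* (0.13), *S100a6* (0.14) and *S100a11* (0.29), and at 0.5 for *Anxa2* (0.10) and *S100a11* (0.16), while that of *S100a4* was 1.04, 0.95 and 1.03. That of *Anxa1* shrank from -0.86 to -0.44 and -0.39 at these resolutions. No keratinocyte-like cluster was named at resolution 0.5. Use of barcodes of 1 set only, leaving out both keratinocyte-rich libraries and the Acta2 split were chosen after seeing the data.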
